A study of Mus musculus with 2 samples.

Results

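Migratory dendritic cells (DCs) are mature DCs that have switched on the chemokine receptor Ccr7, which guides them along its ligands into lymphatic vessels and to lymph nodes. On maturing, DCs rebuild their actin skeleton, raise costimulatory and inhibitory ligands and activate the NF-kB pathway, and they take up less antigen. In tumors such cells carry antigen to the lymph node, secrete chemokines such as Ccl22 and Ccl17 that attract T cells, and carry inhibitory ligands such as Cd274 (PD-L1).

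The cells described here were chosen by their own values. A cell was taken when at least 3 of 7 genes (Ccr7, Fscn1, Ccl22, Cacnb3, Nudt17, Socs2 and Il4i1) lay more than 1 above their zero level and none of Cd3d, Cd3e and Cd3g did. This rule found 67 of 9773 cells, of which 24 were among 4577 cells of the Ahr cKO library and 43 among 5196 cells of the Ahr fl/fl library.

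The data were single-cell RNA profiles (10X Genomics) of live cells, sorted with the dye DAPI, from whole pancreatic tumors. The tumors grew in the mouse pancreas for 14 days from implanted MT4 cells, an organoid line from KPC mice, a genetic model of pancreatic cancer. The Ahr cKO library came from 3 pooled mice labelled C57/BL6 Ahr fl/fl Lys M, in which LysM-CRE deletes the floxed Ahr alleles, and the Ahr fl/fl library from 3 pooled mice labelled C57/BL6 Ahr fl/fl. Both groups of mice carried the floxed alleles. The product of Ahr is the aryl hydrocarbon receptor, which controls transcription once a small-molecule ligand binds it. The question is how the tumor's cells differ when Ahr is deleted where LysM-CRE acts, which is mainly in macrophages, monocytes and neutrophils and only in a part of DCs. The age and sex of the mice are not given in the sources used here. There was 1 library per genotype, so no difference between genotypes has a replicate check, no test was possible, and an SD over cells is not an error between mice.

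The deposited values are scaled scores for 2000 genes, centred per gene, in units of the SD of a gene over all cells, and capped at 10. They are differences from a gene's mean, not molecules, so the depth of the libraries in molecules is unknown and no fold change is given. For each gene most fl/fl cells had the same, lowest value (in the median gene 96.0% of them), and every value below is given above that level, called the zero level. Of the cKO cells, only 55.7% lay at that level in the median gene, and 15.3% lay below it. A shift of the cKO values by an amount that differs between genes, called the move here, is inferred from this and is not stated in the sources used here. The rule was applied to the cKO values as deposited, so the number of cKO cells it found rests on them. Cell barcodes were also shared, with 656 barcodes present in both libraries, and cells with the same barcode correlated at a median of 0.430 over the 2000 genes, against 0.0712 for cells with different barcodes. None of the 67 migratory DCs had such a barcode, while 10 cKO and 20 fl/fl cells of the other DCs did.

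Migratory DCs were 0.524% of cKO cells (exact Clopper-Pearson 95% interval 0.336% to 0.779%) and 0.828% of fl/fl cells (0.600% to 1.11%). The intervals overlap and cover counting error only. For comparison, conventional DCs were chosen in the same libraries as cells outside the rule, with no Cd3 gene, that had at least 3 markers more than 1 above zero. Type 1 cells (cDC1, which take up dead cells and present to CD8+ T cells) numbered 73 in the cKO and 97 in the fl/fl library. Type 2 cells (cDC2, which present mainly to CD4+ T cells) numbered 23 in the cKO and 26 in the fl/fl library. Of migratory DCs, cDC1 and cDC2 cells together, migratory DCs made up 20% in the cKO library (24 of 120, 13.3% to 28.3%) and 25.9% in the fl/fl library (43 of 166, 19.4% to 33.3%). Without cells that had 3 or more epithelial markers, the migratory DCs were 0.538% of the cKO and 0.897% of the fl/fl library. Without cells whose barcode occurs in both libraries they were 0.612% of the cKO and 0.947% of the fl/fl library.

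In the embedding that the authors deposited, 22 of 24 cKO and 39 of 43 fl/fl migratory DCs lay within a distance of 1 of their centre. Clustering of all cells put 21 of the 24 and 38 of the 43 in 1 cluster of 72 cells. That cluster held 13 cells outside the rule, of which 1 was a cKO and 12 were fl/fl cells, and 8 of these 12 had 2 of the 7 genes. A fl/fl cell of those 12 had a median of 54.5 genes above zero, against 172 in fl/fl migratory DCs. The clusters were made from all genes, those of the rule included, and how the embedding was made is not given in the sources used here, so both describe the cells and do not test the label.

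**Figure D1:**
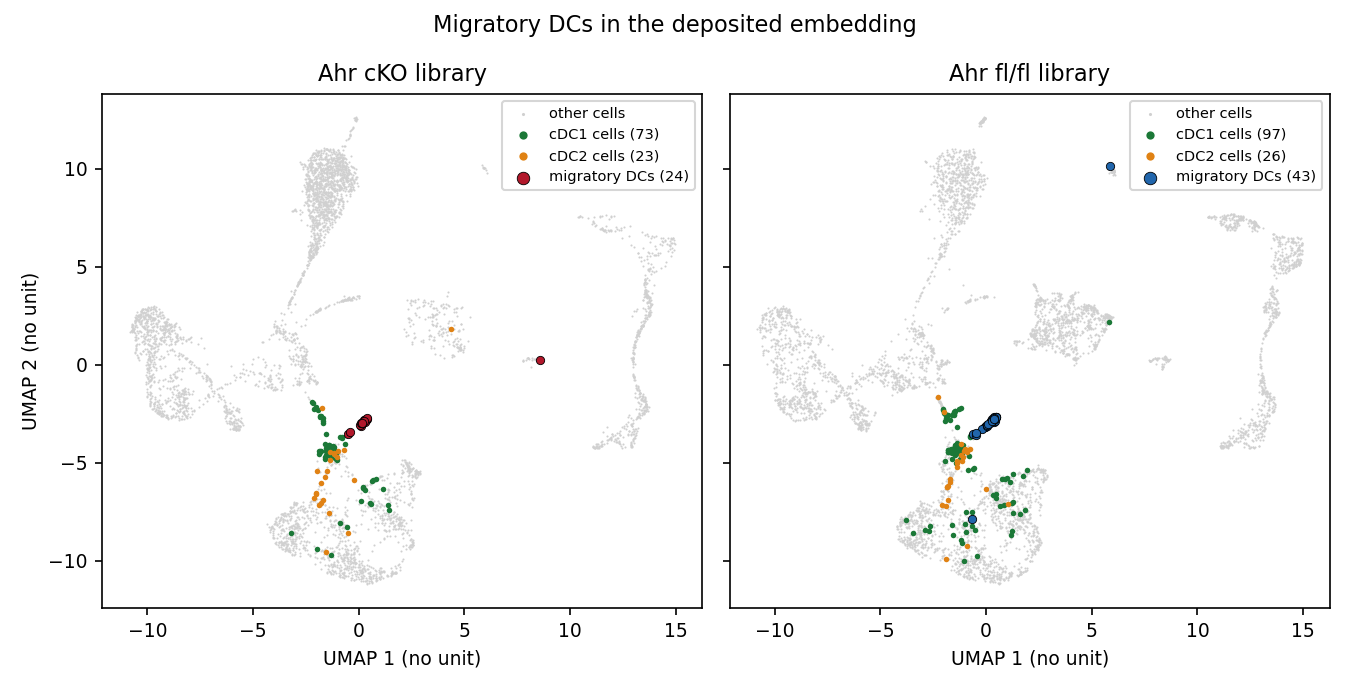
UMAP 1 against UMAP 2 as deposited (no unit), with the Ahr cKO library on the left and the Ahr fl/fl library on the right. Each point is 1 cell, and the migratory DCs (24 cKO and 43 fl/fl cells) sit mostly in 1 spot beside the cDC1 and cDC2 cells, with 22 and 39 of them within a distance of 1 of their centre.

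The genes of the rule are given first, as a description only. Ccr7 was over 1 in 19 of 24 cKO and 36 of 43 fl/fl migratory DCs, with medians of 5.24 and 7.15. Fscn1, which encodes the actin-bundling protein fascin, was over 1 in 19 of 24 cKO and 35 of 43 fl/fl cells, and 12 and 21 of these lay at the cap. Cacnb3, a subunit of voltage-gated calcium channels, was over 1 in 19 cKO and 32 fl/fl cells. Each of these 3 genes was thus over 1 in at least 74.4% of the cells of either library. Socs2, a suppressor of cytokine signalling, was over 1 in 16 cKO and 27 fl/fl cells, and Nudt17, of the Nudix hydrolase family, in 14 and 19. Ccl22, a chemokine for the receptor Ccr4, was over 1 in 12 cKO and 18 fl/fl cells. Il4i1, a secreted oxidase whose products from tryptophan can switch on the AHR protein, was over 1 in 21 cKO and 27 fl/fl cells. The lowest cKO value of Il4i1 was 0.34, while 14 of 43 fl/fl cells were at zero, so no cKO cell lay at its zero level. A coding exon of Il4i1 shares bases with the gene Nup62 on the same strand, and reads there could be counted for either gene.

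**Figure D2:**
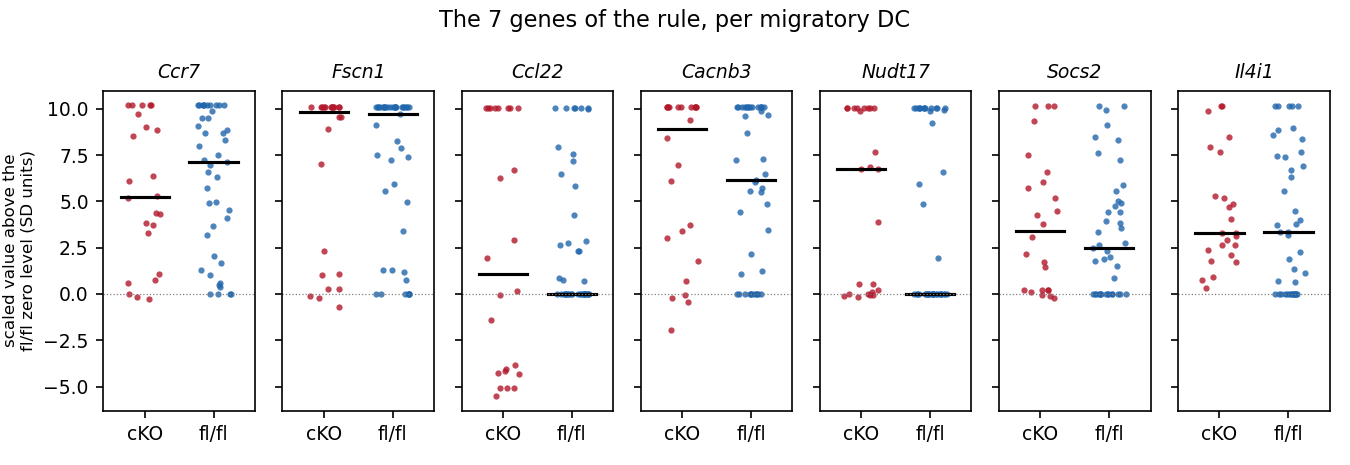
Scaled value above the fl/fl zero level (vertical axis, SD units) of the 7 genes of the rule, 1 point per migratory DC, with the 24 Ahr cKO cells left and the 43 Ahr fl/fl cells right in each panel and the median as a bar. Values end at the cap near 10, and the low Ccl22 band of the cKO cells lies below zero, down to -5.52.

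All 7 genes were over 1 in 6 of 24 cKO and 6 of 43 fl/fl cells. Exactly 3 were over 1 in 5 cKO and 14 fl/fl cells, 4 in 6 and 8, 5 in 3 and 12, and 6 in 4 and 3. The count followed detection: fl/fl cells with 3 of the genes had a median of 106 other genes above zero, and those with all 7 had 303. Just outside the rule lay 46 cKO and 50 fl/fl cells with exactly 2 of the genes and no Cd3 gene. Of those, 1 cKO and 8 fl/fl cells were in the cluster of the migratory DCs. In the 46 cKO cells Ccr7 was over 1 in 35 and Il4i1 in 36, while in the 50 fl/fl cells they were over 1 in 22 and 17. A further 0 cKO and 4 fl/fl cells had at least 3 of the genes together with a Cd3 gene.

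Markers of cell types other than DCs were over 1 in few cells. No migratory DC of either library had any of 9 macrophage markers over 1, and the macrophage genes Mrc1, Pf4 and Fcgr1 were at zero in all 43 fl/fl cells. None of 8 monocyte markers was over 1 in cKO cells, and 3 fl/fl cells had 1 or more. At least 1 T cell marker was over 1 in 0 cKO and 1 fl/fl cell, an NK cell marker in 0 and 0, a neutrophil marker in 0 and 1, a B lineage marker in 0 and 1, a plasma cell marker in 0 and 3, an epithelial marker in 2 and 2, a fibroblast marker in 0 and 1, and an erythroid marker in 2 and 5. The T cell markers include Cd3d, Cd3e and Cd3g, which the rule kept from being over 1. The low T cell count is thus in part fixed by the rule. Markers of other DCs were more frequent: at least 1 of 9 cDC1 markers was over 1 in 19 of 24 cKO and 26 of 43 fl/fl cells, and at least 3 were in 4 cKO and 4 fl/fl cells. At least 1 of 7 cDC2 markers was over 1 in 15 cKO and 19 fl/fl cells, at least 3 in 1 and 0, and at least 1 of 5 markers of plasmacytoid DCs in 3 and 4. Summed over their lists, macrophage markers ranged in cKO cells from -0.017 to 0.43 and in fl/fl cells from 0 to 2.32. Possible doublets, with at least 3 markers of a cell type outside the DCs, were 1 cKO cell with erythroid genes and 2 fl/fl cells, 1 with erythroid and 1 with fibroblast genes. No marker of endothelial cells was measured.

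The migratory DCs were next set against cDC1 and cDC2 cells of the fl/fl library, where the zero levels are intact. Over 1993 genes outside the rule, 108 (5.42%) were at least 0.5 higher and 60 (3.01%) at least 0.5 lower in the mean of the 43 migratory DCs than in the mean of the 123 other DCs, and the median difference was -0.0044. These counts describe 1 library and carry no test. Without the other DCs whose barcode occurs in both libraries they were 101 and 67. The median number of genes above zero was 172 in migratory DCs (44 to 758), 203 in cDC1 cells, 200.5 in cDC2 cells and 106 in all other cells. The part of detection in the differences was not tested.

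The highest difference outside the rule was that of Serpinb6b, an intracellular inhibitor of serine proteases. It averaged 4.78 ± 4.01 in migratory DCs (SD over 43 cells), 1.07 in cDC1 and 0.063 in cDC2 cells, and it was over 1 in 74.4% of migratory DCs, 25.8% of cDC1, 0 of 26 cDC2 and 4.23% of all other cells. Serpinb9, an inhibitor of the killer cell protease granzyme B, was over 1 in 60.5% of migratory DCs, 18.6% of cDC1, 11.5% of cDC2 and 3.72% of all other cells.

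Several of the leading genes act in signalling. Tbc1d4, which regulates Rab proteins of vesicle traffic, was over 1 in 31 of 43 migratory DCs, 14 of 97 cDC1 and 0 of 26 cDC2 cells, a mean difference of 3.79 from the other DCs. Traf1, an adaptor of TNF receptors and a target of NF-kB, was over 1 in 74.4% of migratory DCs (interval 58.8% to 86.5%), 18.6% of cDC1 and 19.2% of cDC2 cells, a difference of 3.37. Gnb4, a G protein subunit, was 2.95 higher and Ramp3, which modifies receptors of the calcitonin family, was 2.93 higher. Ramp3 was over 1 in 44.2% of migratory DCs against 1.03% of cDC1 and 7.69% of cDC2 cells. Etv3, a transcriptional repressor of the ETS family, was 2.92 higher, and Zmynd15, a zinc finger protein, 2.47 higher.

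Tmem123, a membrane glycoprotein, was over 1 in 34 of the 43 cells, 8 of 97 cDC1 and 3 of 26 cDC2 cells, and its 79.1% was the highest share in migratory DCs among the 15 genes with the highest differences. Glipr2 was 3.19 and Bcl2l14, a member of the Bcl-2 family, 2.85 higher. Adam23, a metalloprotease-like protein that binds integrins, was 2.57 higher and Nostrin, which acts in the traffic of nitric oxide synthase, 2.31 higher. Scin and Gm13546 were over 1 in fewer cells but stood at zero in every fl/fl cDC1 and cDC2 cell. Scin, which encodes the actin-severing protein scinderin, was over 1 in 12 of 43 migratory DCs (27.9%, interval 15.3% to 43.7%), in 0 of 97 cDC1 cells (up to 3.73%), in 0 of 26 cDC2 cells (up to 13.2%) and in 0.179% of all other cells. Gm13546, annotated as an antisense transcript, was over 1 in 15 of 43 migratory DCs and 0.338% of all other cells. Whether reads were counted by strand is not given in the sources used here, so reads of Gm13546 cannot be told from reads of a gene on the other strand.

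**Figure D3:**
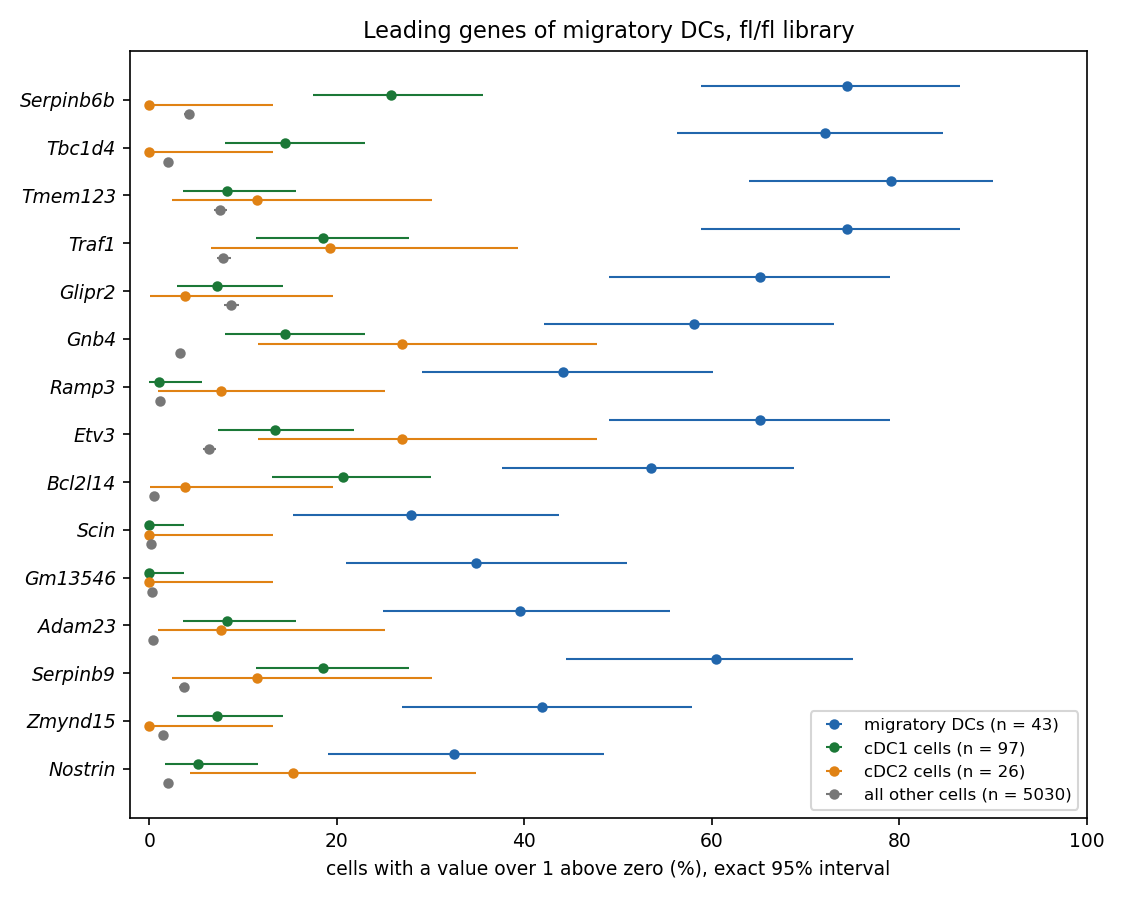
Percent of fl/fl cells with a value over 1 above zero (horizontal axis) for the 15 genes with the highest mean difference between migratory DCs and the other DCs, with exact 95% intervals for 43 migratory DCs, 97 cDC1, 26 cDC2 and 5030 other cells. The migratory DC point is the right-most of each row, from 27.9% for Scin to 79.1% for Tmem123.

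In the deposited values of the cKO library, 14 of these 15 genes were higher in migratory DCs than in the other DCs, by 1.43 for Adam23 to 4.76 for Tmem123. The 15th, Scin, was 6.90 higher as deposited, but its zero level in cKO migratory DCs was estimated at 7.71, above their mean of 6.92, so no direction is given for it there. The move was not removed from the other 14 differences, and its part in them was not tested. The lowest cKO value of Traf1, for example, was 1.54 in migratory DCs, whereas 10 of 43 fl/fl cells were at zero. All 15 genes were higher against cDC1 cells alone and against cDC2 cells alone in the fl/fl library as well.

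Of the 10 genes with the lowest differences, 5 were markers that had been used to choose cDC1 or cDC2 cells. That choice by itself favours lower values in migratory DCs, and its part was not tested. Naaa (-2.47), Xcr1 (-2.02), Ifi205 (-1.89), Clec9a (-1.30) and Mgl2 (-1.28) are those markers. The other 5 were Ckb, a creatine kinase (-1.71), Plet1 (-1.49), Qpct, which forms pyroglutamate at protein ends (-1.44), the class II gene H2-Ab1 (-1.34) and the septin gene Sept3 (-1.30). Qpct was over 1 in 0 of 43 migratory DCs, 28 of 97 cDC1 and 10 of 26 cDC2 cells. Ckb was over 1 in 3 migratory DCs, 42 cDC1 and 13 cDC2 cells.

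The gene lists that follow were chosen with earlier results of these data known. Genes of migration and the cytoskeleton were higher as a group. Of 6 measured genes outside the rule, 5 were at least 0.5 higher and none lower, against 5.42% and 3.01% of all genes, with a median difference of 1.15. Beside Tmem123, they were Marcksl1, a relative of the actin-binding protein MARCKS (26 of 43 migratory DCs, 19 of 97 cDC1 and 4 of 26 cDC2 cells over 1, difference 2.11), Anxa3 (1.21), the chemokine Cxcl16 (1.10) and the adhesion molecule Icam1 (0.50). The protease gene Adam8 differed by 0.41.

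Ligands that DCs show to T cells were higher too. Of 12 genes in this list, 4 were measured. All 4 were at least 0.5 higher, against 5.42% of all genes, with a median of 1.47. Cd200, whose protein inhibits myeloid cells through its receptor, was over 1 in 17 of 43 migratory DCs, 3 of 97 cDC1 and 0 of 26 cDC2 cells, a difference of 2.07. Cd83, a surface protein of mature DCs, was over 1 in 58.1% of migratory DCs, 19.6% of cDC1 and 23.1% of cDC2 cells, a difference of 1.91. Cd274 was over 1 in 41.9% of migratory DCs (interval 27% to 57.9%), 20.6% of cDC1 and 3.85% of cDC2 cells, a difference of 0.74. Cd70, the ligand of CD27 on T cells, was over 1 in 5 of 43 migratory DCs and in no cDC1 or cDC2 cell of the fl/fl library, a difference of 1.04. Cd40, Cd80 and Cd86 were not analysed here.

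Of 13 genes listed for the NF-kB pathway and survival, 5 were measured. Of these 5, 4 were at least 0.5 higher and none lower, against 5.42% and 3.01% of all genes, with Bcl2a1d at the median. Beside Traf1 these were Bcl2a1b (33 of 43 migratory DCs, 32 of 97 cDC1 and 6 of 26 cDC2 cells, difference 2.02), Bcl2a1d (1.40) and Gadd45b (0.78), and Tnip3 differed by 0.20. Bcl2a1b and Bcl2a1d, both inhibitors of cell death, are near-identical copies, so reads could be split between them, and Bcl2a1b also shares exon bases with Gm29094.

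Chemokines and cytokines were not higher as a group by their median, which was -0.065. Of 11 measured genes outside the rule, 4 were at least 0.5 higher and 1 lower, against 5.42% and 3.01% of all genes. Il12b, which encodes the shared subunit of interleukins 12 and 23, was over 1 in 11 of 43 migratory DCs (25.6%, interval 13.5% to 41.2%), 5 of 97 cDC1, 0 of 26 cDC2 and 1 of 5030 other cells. Its difference was 1.91. Ccl17, a chemokine for Ccr4 like Ccl22, was over 1 in 14 of 43 migratory DCs, 6 of 97 cDC1 and 10 of 26 cDC2 cells, but Ccl17 is also among the markers that chose cDC2 cells. Ccl5 was over 1 in 12 migratory DCs, 1 cDC1 and 0 cDC2 cells, a difference of 0.90, and Cxcl16 is counted here as well. Cxcl9, which attracts T cells and is induced by interferon, was 0.55 lower than in the other DCs together, but 0.31 higher than in cDC2 cells alone. Ccl3, Ccl4 and Il6 were over 1 in none of the 43 cells.

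Il2ra, the alpha chain of the interleukin 2 receptor, was over 1 in 7 of 43 migratory DCs and no other fl/fl DC, a difference of 0.87, and Socs1 differed by 0.35.

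Class II genes, which present antigen to CD4+ T cells, were lower. Of 5 measured, 4 were at least 0.5 lower and none higher, against 3.01% and 5.42% of all genes, with a median of -0.72. H2-Ab1 was over 1 in 34.9% of migratory DCs, 77.3% of cDC1, 88.5% of cDC2 and 20.2% of all other cells. H2-DMb1, which helps load peptides, was over 1 in 3 of 43 migratory DCs, 51 of 97 cDC1 and 16 of 26 cDC2 cells, a difference of -1.27. H2-Eb1 (-0.72) and H2-Aa (-0.66) were still over 1 in 27 of 43 cells each, and these 2 fell short of -0.5 when the cells of the cluster were used in place of the rule (-0.47 and -0.37). Ciita, the master regulator of class II genes, differed by -0.20.

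For antigen uptake and sensing, 6 of 10 genes were at least 0.5 lower and none higher, against 3.01% and 5.42% of all genes. The median was -0.78. Of these 6, Clec9a, Xcr1, Mgl2, Tlr3 and Cd209a also chose the cDC1 and cDC2 cells. Outside those markers, the inhibitory Fc receptor Fcgr2b was at zero in every fl/fl migratory DC, a difference of -0.76, and Clec4n differed by -0.42 and Cd14 by -0.29.

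In the other lists few or no genes were past 0.5. None of 12 cell cycle genes was past 0.5 in either direction (median -0.15), against 5.42% higher and 3.01% lower of all genes. Stmn1 was over 1 in 1 of 43 migratory DCs, 15 of 97 cDC1 and 2 of 26 cDC2 cells, and Hmgb2 in 0, 16 and 3. Pclaf was over 1 in 0, 12 and 2 of them, and Birc5 in 1, 13 and 2. Tubb5 (0.099) and Tuba1b (0.14) had differences above zero. Mki67 was over 1 in 2 of 43 migratory DCs and Top2a in 1. None of 9 dissociation and stress genes was past 0.5 (median -0.16), and Fos was over 1 in 1 of 43 migratory DCs, 15 of 97 cDC1 and 2 of 26 cDC2 cells. Of 11 interferon genes, 2 were lower (Ifi205 and Cxcl9) and none higher, against 3.01% and 5.42% of all genes, with a median of -0.10. Isg15 was over 1 in 7 of 43 migratory DCs and differed by 0.21.

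**Figure D4:**
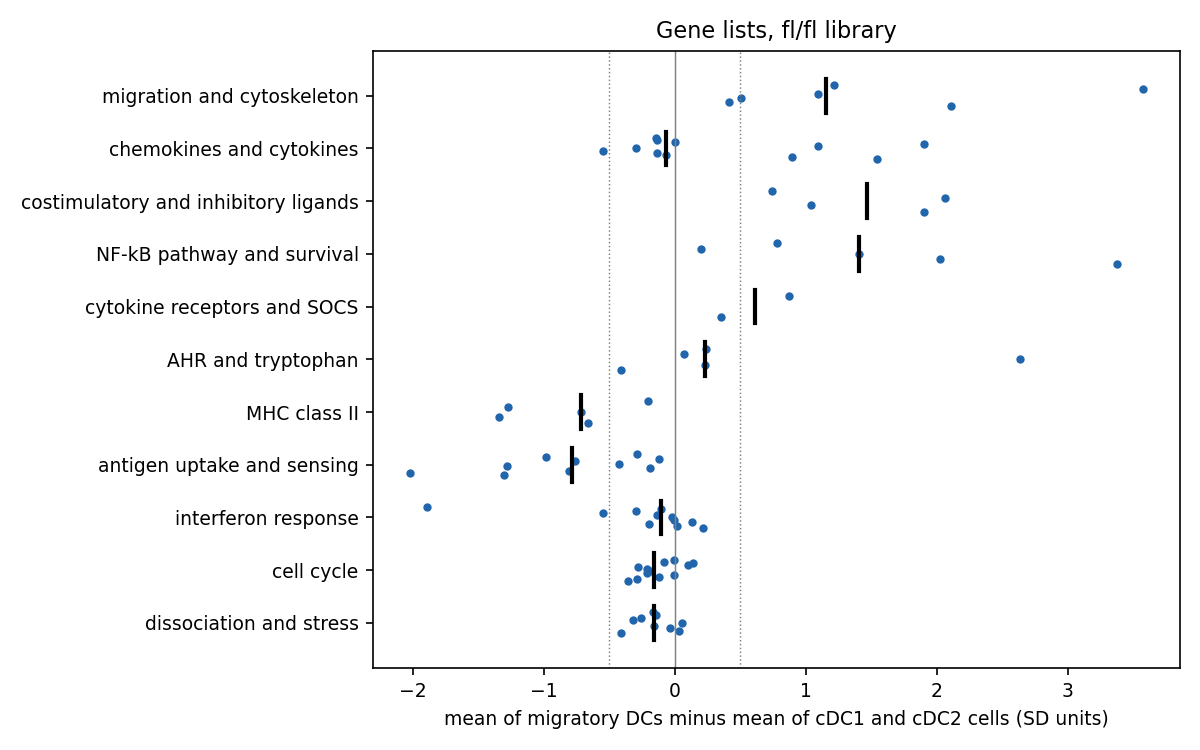
Mean of fl/fl migratory DCs minus mean of fl/fl cDC1 and cDC2 cells (horizontal axis, SD units), 1 point per measured gene outside the rule, with the list median as a bar and dotted lines at 0.5 on either side of zero. Medians run from 1.47 for costimulatory and inhibitory ligands to -0.78 for antigen uptake and sensing, and the highest point among the AHR and tryptophan genes is Scin.

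The values varied among the migratory DCs. Clec9a, a cDC1 receptor for dead cells whose exons share bases with Clec1b, was over 1 in 7 of 43 fl/fl migratory DCs, and 5 of these 7 also had Il12b over 1, against 6 of the 36 without Clec9a. Ccl17 was over 1 in 14 cells, of which 11 also had Ccl22, against 7 of the 29 without Ccl17. Cd83 was over 1 in 25 cells, of which 12 also had Cd200, against 5 of the 18 without Cd83. Scin was over 1 in 12 cells, of which 9 also had Il4i1, against 18 of the 31 without Scin. Ccl22 and Il4i1 are genes of the rule, so the pairs that hold them are shaped by how the cells were chosen and are a description only. Detection differed along these splits: the median number of genes above zero was 238 in cells with Clec9a and 166.5 without, 284 with Ccl17 and 128 without, 205 with Cd83 and 104.5 without, and 276 with Scin and 115 without. The part of detection in these pairs was not tested. Cells with Il12b had a median of 140 genes above zero and those without it 172.5.

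Batf3, a transcription factor needed for cDC1 cells, was over 1 in 22 of 43 fl/fl migratory DCs, 34 of 97 cDC1 and 5 of 26 cDC2 cells. Apol7c was over 1 in 11 of 43 migratory DCs, 13 of 97 cDC1 and 0 of 26 cDC2 cells. Irf8, a further cDC1 factor, averaged 1.24 in fl/fl migratory DCs, 0.88 below the other DCs, and it is a marker that chose cDC1 cells.

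Ahr was above zero in 18.6% of fl/fl migratory DCs and over 1 in fewer. It lies on chromosome 12 at 35497974 to 35535038 (GRCm38, minus strand), and it was over 1 in 1 of 24 cKO (4.17%, interval 0.105% to 21.1%) and 3 of 43 fl/fl migratory DCs (6.98%, 1.46% to 19.1%). The lowest, median and highest values were -0.23, 0.0017 and 2.36 in cKO cells and 0, 0 and 3.46 in fl/fl cells, so the libraries overlap. In fl/fl cDC1 cells Ahr was over 1 in 19 of 97, in cDC2 cells in 10 of 26, and in all other cells in 7.16%. The cKO minus fl/fl difference of Ahr was -0.060, with SDs over cells of 0.52 and 0.63, and its sign depended on how the cells were chosen. With 1 library per genotype and Ahr above zero in few cells, whether the genotypes differ cannot be told. Which part of Ahr is deleted, and which end of transcripts was read, are not given in the sources used here, so the values do not check the labels either. Lyz2 is the gene whose locus drives LysM-CRE. It was over 1 in 0 of 24 cKO (up to 14.2%) and 0 of 43 fl/fl migratory DCs (up to 8.22%). In the fl/fl library Lyz2 was over 1 in 16 of 97 cDC1 and 2 of 26 cDC2 cells (7.69%). It was above zero in 16.3% of fl/fl migratory DCs, with a highest value of 0.046. Whether LysM-CRE acted in these cells was not tested.

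Of 5 measured genes of the AHR and tryptophan list outside the rule, 1 was at least 0.5 higher than in the other DCs, against 5.42% of all genes. This was Scin, which is known as a gene that AHR induces in mouse lymphocytes and lies on the same chromosome (40059769 to 40134228, minus strand). Cyp1b1, a classical AHR target, was over 1 in 0 of 24 cKO and 1 of 43 fl/fl migratory DCs, Ido1, which breaks down tryptophan, in 0 and 1, and Aldh1a2, which makes retinoic acid, in 3 and 3.

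For the comparison of genotypes, 468 genes that at least 10% of fl/fl migratory DCs had above zero were used. Genes below that share were left out whatever their cKO values. The counts of higher and lower genes, also those by list, thus cannot include a gene present only in cKO cells. Of these, 143 (30.6%) were at least 0.1 higher and 114 (24.4%) at least 0.1 lower in the mean of cKO than of fl/fl migratory DCs, and 36 (7.69%) and 15 (3.21%) were past 0.5. In these cells, among 252 genes that 10% to 30% of fl/fl migratory DCs had above zero, the value at the 30th percentile of cKO cells was at least 0.1 for 52 genes and at least 1 for 7, and the value at the 70th percentile was -0.1 or less for 16 genes. An estimate with this move removed, which takes from each cKO value the 0.3 quantile of that gene over the 25 cKO cells of the cluster and the rule, is therefore given beside the deposited difference. It can be made for the 333 genes that under 40% of fl/fl migratory DCs had above zero. The quantile is a zero level only if at least 30% of those cKO cells lack the gene. The 40% limit looks at fl/fl cells alone, so this was not tested in cKO cells. For a gene present in most cKO cells the estimate would be too low. With it 105 genes (31.5%) were higher and 97 (29.1%) lower. Of 137 genes past 0.1 both ways, 31 had opposite signs.

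The highest deposited difference was that of Scin. Its cKO values had a lowest, median and highest of 0.19, 8.13 and 10.1, with 22 of 24 cells over 1, and its fl/fl values 0, 0 and 10.1, with 12 of 43 over 1. The deposited difference was 4.28, and the estimate with the move removed was -3.43. At the 30th and 70th percentiles the cKO cells lay at 7.63 and 8.47, a narrow band with no cell at zero, and 2 cKO and 10 fl/fl cells lay at the cap. The cap leaves little room above that band, so a direction for Scin cannot be given from these values. Slc27a3, a fatty acid transport protein, had the same form, with a cKO median of 3.25 and 37 of 43 fl/fl cells at zero, a deposited difference of 1.82 and an estimate of -1.28.

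Il12b was 1.20 higher in cKO than in fl/fl cells as deposited (19 of 24 and 11 of 43 over 1) and -0.38 by the estimate. The zero level taken for Il12b in cKO cells was 1.58, while its lowest cKO value was 0. Apol7c was 1.14 higher as deposited and -0.045 by the estimate. At the other end Cd70 had a cKO median of -3.32 and a fl/fl median of 0, a deposited difference of -1.71 and an estimate of 1.94, with 6 of 24 cKO and 5 of 43 fl/fl cells over 1. The muscle-type genes Tnni2 (deposited -1.17, estimate 0.51) and Tpm2 (-1.10 and 0.71) likewise had cKO medians below zero, at -1.44 and -1.57. These 7 genes had a sign that depends on how the move is treated.

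**Figure D5:**
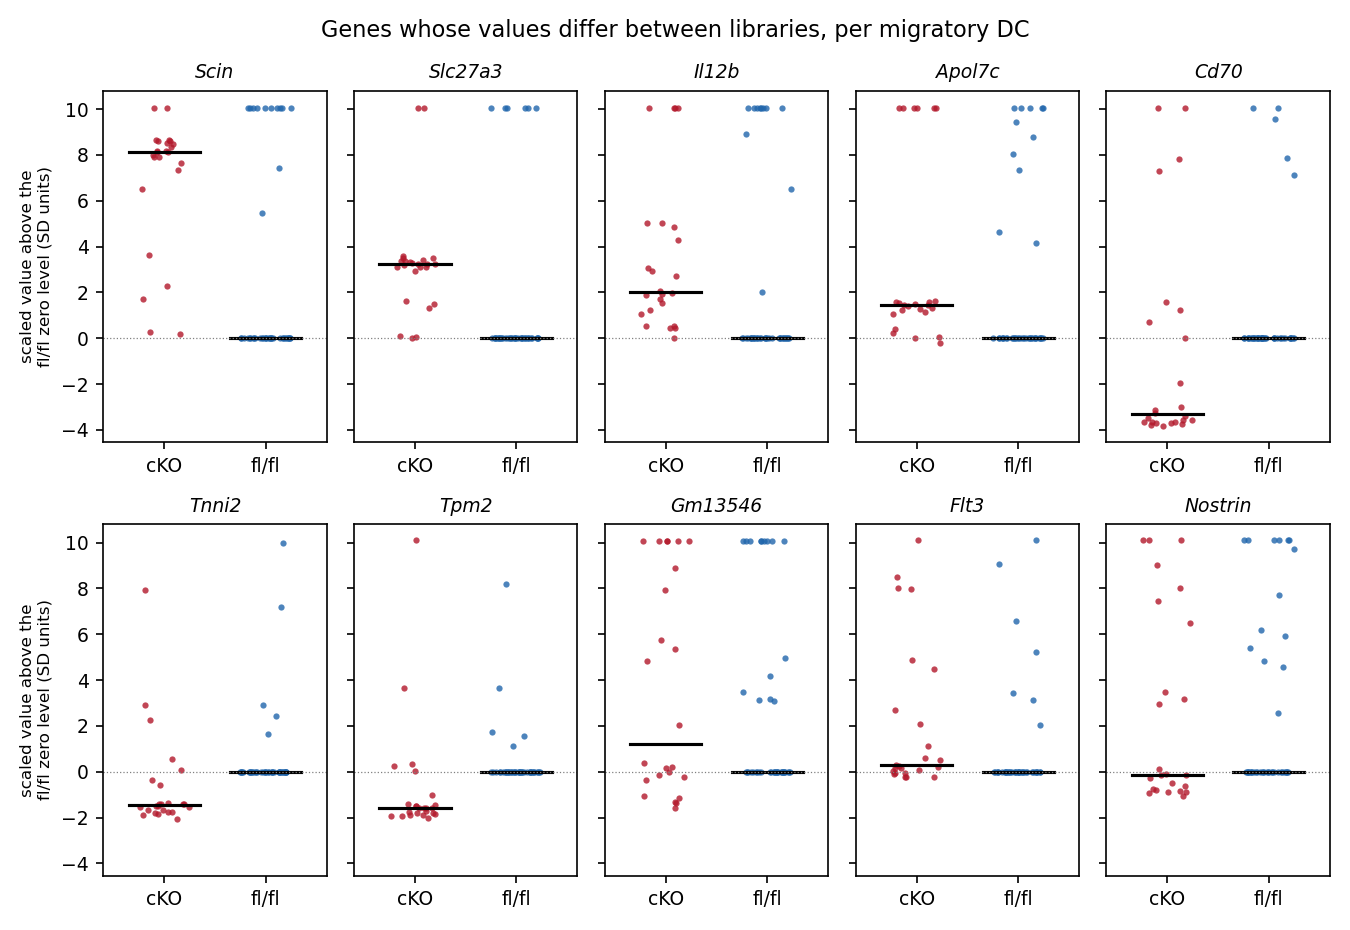
Scaled value above the fl/fl zero level (vertical axis, SD units) of 10 genes, 1 point per migratory DC, with the 24 Ahr cKO cells left and the 43 Ahr fl/fl cells right in each panel and the median as a bar. Most cKO cells form a band away from zero for Scin (median 8.13), Slc27a3 (3.25) and Cd70 (-3.32), while the fl/fl median of all 10 genes is at zero.

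A smaller set had 1 sign under both. Flt3, the receptor of a growth factor of DCs, was over 1 in 9 of 24 cKO cells (37.5%, interval 18.8% to 59.4%) and 7 of 43 fl/fl cells (16.3%, 6.81% to 30.7%), a deposited difference of 1.22 and an estimate of 1.12. Gm13546 was over 1 in 12 of 24 cKO and 15 of 43 fl/fl cells, a difference of 1.08 and an estimate of 1.25. Adam23 was over 1 in 9 of 24 cKO (37.5%) and 17 of 43 fl/fl cells (39.5%), a difference of -1.24 and an estimate of -1.86. Nrp2, a semaphorin receptor, was over 1 in 7 of 24 cKO (29.2%) and 12 of 43 fl/fl cells (27.9%). Its difference was -0.82 and its estimate -0.66. Flrt3 was over 1 in 5 of 24 cKO (20.8%) and 8 of 43 fl/fl cells (18.6%), a difference of -0.76 and an estimate of -0.23. For Nrp2 and Flrt3 the mean was lower in cKO cells, but the share of cells over 1 was not. The cells of the libraries overlapped for every gene named in this paragraph, and intervals of their shares cover counting error only.

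For 7 more genes with large deposited differences no estimate could be made, since 40% or more of the fl/fl cells had them above zero. Higher in cKO cells were Bcl2l14 (1.49), Bcl2a1b (1.23), Batf3 (1.10) and Gnb4 (1.08, but -0.021 in cells with at least 4 genes of the rule), and lower were Etv3 (-1.11), the cyclin gene Ccnd2 (-0.95) and Ccdc88a, which binds actin (-0.89). Batf3 was over 1 in all 24 cKO cells, with a lowest value of 1.14, whereas 19 of 43 fl/fl cells were at zero.

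Described by list, with all genes at 30.6% higher and 24.4% lower, deposited cKO values were higher for 5 of 6 migration genes (median 0.40), 5 of 6 chemokines and cytokines (0.39) and 4 of 5 NF-kB and survival genes (0.46), of which the fifth, Tnip3, was lower (-0.49, and 0.044 with the move removed). The ligands were 2 higher and 2 lower. These counts hold Il12b and Cd70, whose signs turned with the move removed. None of 5 class II genes was higher and 2 were lower (median -0.0038), and none of 4 cell cycle genes was past 0.1. Of 6 dissociation and stress genes 3 were lower and none higher (-0.081). Cd83 averaged 3.61 ± 1.81 in cKO cells and 2.68 ± 2.95 in fl/fl cells (SD over 24 and 43 cells), and Cd274 averaged 1.36 ± 1.16 and 1.21 ± 1.65. For most genes of these lists the move cannot be estimated, so its part in the counts was not tested. Of 5 erythroid markers 4 were higher in the mean of cKO cells. Summed over the 6 erythroid markers, however, the median was 0.028 in cKO and 0.037 in fl/fl cells, and the highest value 39.3 and 4.68. In 1 cKO cell, a possible doublet, all 6 were over 1, and its part in the means was not tested. At least 1 of the 6 erythroid markers was over 1 in 2 cKO and 5 fl/fl cells, and at least 3 were in 1 cKO and 1 fl/fl cell.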

How the data were processed

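Gene values are scaled scores that the authors deposited for 2000 genes and 9773 cells, with 2 UMAP scores per cell. The submitters' processing notes name Cell Ranger 3.0.0, Seurat 3.1.4 and the build mm10/GRCm38, without saying what each did. Filters on cells, doublet removal and correction between libraries are not given in the sources used here. Cells were assigned to libraries by the end of their name. Clusters came from 30 principal components, 15 neighbours and the Leiden method at resolution 1 (scanpy 1.11.5, igraph 0.11.9, scikit-learn 1.9.0). Other steps used matplotlib 3.10.9, scipy 1.17.1, pandas 2.3.3, numpy 2.4.6 and Python 3.11.15. The cDC1 and cDC2 cells had at least 3 markers of their list over 1 and more of it than of the other list. No doublet caller was run, and possible doublets were kept except in 1 alternative. Differences were counted from 0.5 against other DCs and from 0.1 between libraries. The calculations were tested on simulated data. Those had many more cells than the 25 cKO cells of the estimate, 1 constant shift per gene and no cap on shifted values. They therefore do not check the estimate under the limits of these data. The members, marker and gene lists were chosen with earlier results of these data known.

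Named genes were the rule and Cd3 genes, the 15 highest and 10 lowest differences from other DCs, the 10 highest and 10 lowest between libraries, up to 4 genes per list with the largest absolute difference from other DCs, and Ahr, Lyz2 and Scin, of which 1 gene is not reported here. Other list members named with a value, and the splits among the cells, were chosen after their values were seen. Positions are from the GENCODE annotation of GRCm38, in which all 80 named genes were found.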

Additional observations from a re-analysis of the deposited data

How the results depend on the processing

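No paired analysis was possible because there was 1 library per genotype. The share of migratory DCs ranged over all alternatives from 0.415% to 0.612% of the cKO and from 0.558% to 0.962% of the fl/fl library. With at least 4 genes of the rule the fl/fl share was 0.558%. Genes higher in cKO cells numbered 36 and genes lower 15 when counted from 0.5, and 70 genes were lower when genes had to be detected in 20% or more of fl/fl migratory DCs. With the move of the cKO values removed, the sign turned for Scin (-3.43), Slc27a3 (-1.28), Il12b (-0.38), Apol7c (-0.045), Cd70 (1.94), Tnni2 (0.51) and Tpm2 (0.71). With at least 4 genes of the rule it turned for Gnb4 (-0.021). Against cDC2 cells alone it turned for Xcr1 (0.12), Clec9a (1.09), Tlr3 (0.062) and Cxcl9 (0.31). The alternatives against cDC1 or cDC2 cells alone, without Ccl22, from 0.5 and without shared barcodes were chosen after seeing the data. Of the remaining values for named genes, 392 against other DCs and 94 between libraries stayed on their side of the size counted, while 4 against other DCs fell short of it and 6 newly passed it. The Ahr difference between libraries was -0.060 in the report, 0.091 with at least 4 genes of the rule and 0.23 with the cells of the cluster. The 25 cKO cells limit the estimate, and the cap limits high values.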
